A study of Penicillium oxalicum with 114 samples.

Results

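The 209 genes described here had more transcript in dPOX07277, a strain of the cellulose-degrading fungus Penicillium oxalicum that lacks the gene POX07277, than in the control strain Ku70 on every lipid tested. They were chosen by a rule on CPM, a gene's expected count as a share of the library's total, in parts per 1000000. On Avicel with arachidonic acid oil, with linolenic acid and with oleic acid alike, the mutant mean plus 1 CPM had to be at least 3 times the Ku70 mean plus 1 CPM, and the mutant mean at least 10 CPM. The rule kept 209 of the 9834 genes with a POX identifier (2.13%), out of 9863 identifiers in all, while 6610 had a mutant mean of at least 10 CPM on all 3 lipids. Since these values chose the genes, the difference between mutant and control on lipid is described with no test. Tests are given on the libraries without lipid.

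Avicel is microcrystalline cellulose, and a fungus growing on it secretes cellulases under activators such as ClrB. Fatty acids are taken up, bound to coenzyme A and shortened by beta-oxidation in peroxisomes and mitochondria, and the acetyl-CoA formed feeds the glyoxylate cycle. In Aspergillus nidulans the zinc-cluster regulators FarA and FarB switch on genes of this pathway when fatty acids are present. The files name genes by identifier only, so the products of the 209 genes and of POX07277 are not given, and no gene is assigned to these pathways. Lists of 9 cellulase and 4 xylanase genes, taken from background knowledge of the identifiers, shared 0 genes with the set. Lists this short can easily share none with a set of this size, so the 0 is given as a count alone. Their ratios of mutant to Ku70 on single lipids ran from 0.0838 to 3.84. The highest was that of POX06835 on linolenic acid, a gene with 2.30 on arachidonic acid oil and 2.70 on oleic acid.

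The series measured RNA of mycelium in 114 libraries, and its stated aim was to find genes whose transcription goes with that of cellulase and xylanase genes. The lipid comparison used 3 libraries each of dPOX07277 and of Ku70, moved from glucose and grown for 24 h on 2% Avicel to which 1 of the 3 lipids was added. Ku70 lacks POXKu70, whose product joins DNA ends and whose loss eases gene targeting, and is the control that the labels name. The labels also call dPOX07277 a control strain, and they do not say from which parent each deletion strain was made or from how many clones. Without lipid, Ku70 was moved from glucose to Avicel (AV, 12 and 36 h) or to wheat bran plus Avicel (WA, 12, 24 and 36 h; 3 libraries each). It was also grown for 24 h on an inducing carbon source, Avicel in the growth protocol (24 libraries, here called induced). dClrB, which lacks POXClrB, was sampled on AV and WA at 12, 24 and 36 h, and dPOX01167, which lacks POX01167, on AV at 12 and 36 h and on WA at 12, 24 and 36 h. The strains dClrB, dPOX02968 and dPOX04420 (each lacking the gene named) and OES1167, which overexpresses POX01167 from its own promoter, were grown induced for 24 h. dClrB and dPOX01167 were also grown from spores for 72 h on Avicel without transfer. The wild type HP7-1 grew for 72 h, also without transfer, on glucose (3 libraries) and on wheat bran alone, with rice straw or with bagasse (1 library each). Every group of the deletion and overexpression strains held 3 libraries, and no dPOX07277 library without lipid was analysed here. Libraries of a group are told apart only by a letter or number, so they may be technical replicates, and the p-values then rest on technical spread. All cells of a culture were sampled together, so fewer cells using a gene and less RNA per cell cannot be told apart.

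The libraries came in 3 depths, with totals of 365937 to 4242956 expected counts in 30 shallow libraries, 5368155 to 8267079 in the 48 of the time course and 13277742 to 14731797 in 36 deep ones, which include the 18 with lipid. POX07277 had 0 CPM in all 9 dPOX07277 libraries and at least 19.4 CPM in every other library. POX04420 had 0 CPM in its mutant and POX02968 at most 0.359 CPM in its own. The label of dClrB was not checked, because no source used here gives the identifier of POXClrB. POX01167 had at most 0.840 CPM in the 12 WA and spore-grown libraries labelled dPOX01167, but over 25 CPM in 5 of the 6 labelled dPOX01167 on AV, up to 1603 CPM. Those 6 libraries were therefore compared with no other group in a test. They did stay in the shared fit of the time course, where they entered the gene filter, the scaling and the estimate of spread. The alternative with the compared groups fitted alone leaves them out. One Ku70 library counted as WA 12 h is labelled 13 h. Of the 9 mutant lipid libraries, oleic acid F and T stood apart. Their correlations with the other 7 over 7244 genes were 0.718 to 0.790 and 0.839 to 0.895, against 0.945 to 0.992 among those 7 and 0.951 between F and T.

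On lipid, the 209 genes together took 84087 to 90944 CPM in the 3 mutant libraries on arachidonic acid oil and 68139.5 to 79929.7 CPM on linolenic acid. On oleic acid mutant library F held 30718 CPM, S 66097 CPM and T 48707 CPM. The 9 Ku70 lipid libraries held 2946 to 5554 CPM. The lowest mutant library lay above the highest control library, a separation favoured by the rule, which used these libraries. The median gene had a mutant mean of 112 CPM on arachidonic acid oil, 94.7 CPM on linolenic acid and 78.2 CPM on oleic acid, against Ku70 means of 4.91, 5.22 and 3.84 CPM. The median ratio, with 1 CPM added to both means, was 15.4, 13.4 and 12.1 in that order of lipids. Single ratios ran from 3.002 to 435. The highest mutant mean fell on arachidonic acid oil for 127 genes, on linolenic acid for 48 and on oleic acid for 34. On one lipid taken alone the same limits held for 353 genes with arachidonic acid oil, 328 with linolenic acid and 619 with oleic acid.

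Library F on oleic acid lay below library S for 180 of the 209 genes, and library T for 158. The median ratio of a library to the Ku70 mean, with 1 CPM added, was 6.06 in F, 15.4 in S and 11.8 in T. With F and T left out, a choice made after seeing the data, the rule kept 228 genes, 201 of them among the 209. The limits of the set were close to genes outside it: POX07025, POX00769 and POX09114 entered with smallest ratios of 3.002, 3.04 and 3.04, and POX00351, POX08386 and POX09117 stayed out with 2.94, 2.93 and 2.87.

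**Figure D1:**
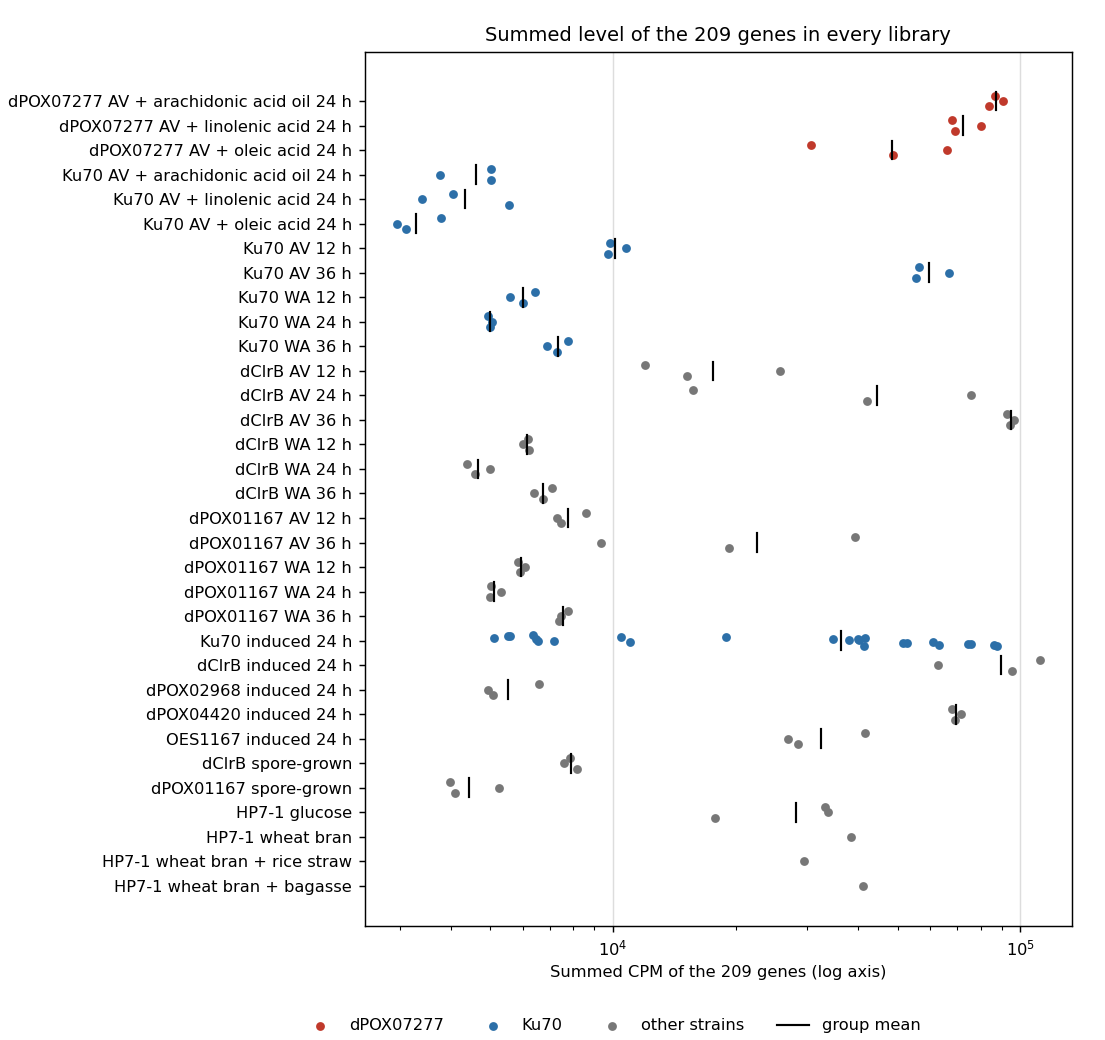
Summed CPM of the 209 genes in each of the 114 libraries (log axis), grouped by strain, medium and time, with 1 point per library and a black bar at the mean of each group of more than 1 library. The dPOX07277 libraries sit between 30718 and 90944 CPM, the Ku70 lipid libraries between 2946 and 5554 CPM, and the 24 Ku70 induced libraries spread from 5091 to 87564 CPM.

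POX01764 held the largest share of counts. Its CPM on arachidonic acid oil was 33838, 38099 and 33473 in the mutant and 705, 549 and 641 in Ku70. On linolenic acid it was 20997, 35726 and 28364 against 679.7, 581 and 1166, and on oleic acid 9431, 20383 and 15461 against 614, 366 and 453. The gene made 40.2% of the summed level of the set in the mutant on arachidonic acid oil. Per coding length it was also the highest, with a mean of 55314 FPKM (fragments scaled by coding length and depth) over the 3 mutant groups, ahead of POX04863 with 9114 FPKM, POX01651 with 4800.5 FPKM and POX00089 with 2501 FPKM. Without POX01764 the summed level was 21288 to 52852 CPM in the mutant and 2580.2 to 4387 CPM in Ku70.

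POX08694 had the largest mean ratio over the 3 lipids, 157 (geometric mean). Its mutant CPM was 1525, 1680.1 and 1360.0 on arachidonic acid oil, 1828, 1751 and 1458 on linolenic acid and 233, 1525 and 763 on oleic acid. In Ku70 it was 3.66, 3.31 and 7.27 CPM, then 10.3, 6.90 and 55.9 CPM, then 3.91, 2.22 and 2.35 CPM on the same lipids. The lowest mutant value came from library F on oleic acid, and 1 Ku70 library on linolenic acid stood above the others of its strain. POX05887 and POX06513 followed with mean ratios of 130.4 and 127. POX06513 differed among lipids, with 1987, 2056 and 2731 CPM in the mutant on arachidonic acid oil but 595, 57.4 and 344 CPM on linolenic acid, and 2.98 to 7.64 CPM in all 9 Ku70 libraries. The next by ratio were POX03413 (103), POX09473 (97.3), POX05855 (93.01), POX09470 (88.6), POX05854 (83.6), POX05858 (82.1) and POX09469 (74.7). Among the 12 genes of highest count, POX00089 (8.04), POX04863 (6.63), POX04860 (5.28) and POX00044 (5.24) had mean ratios under 10, and POX07238 (71.4), POX01651 (36.2), POX05726 (25.4) and POX05306 (12.2) had larger ones.

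**Figure D2:**
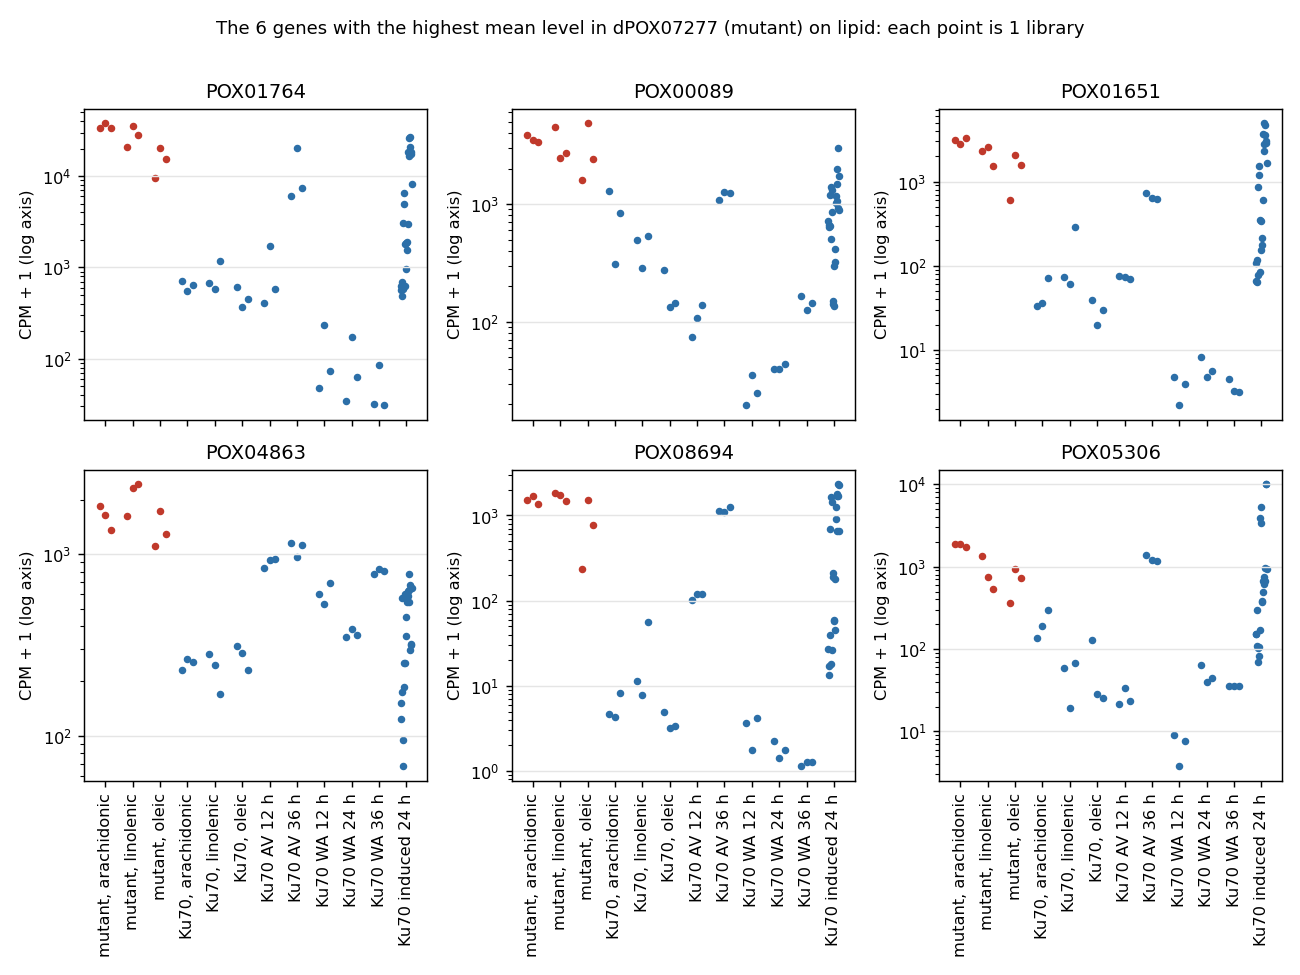
CPM plus 1 (log axis) of the 6 genes with the highest mean CPM in dPOX07277 on lipid, 1 point per library, in the mutant and in Ku70 groups. For POX08694 the 3 AV 36 h libraries (1101 to 1247 CPM) lie within the range of the mutant on lipid (233 to 1828 CPM), and the 3 WA 36 h libraries are at 0.134 to 0.280 CPM.

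The control strain reached such levels without lipid, on Avicel at 36 h. There the 3 Ku70 libraries held 56456, 67027 and 55462 CPM of the 209 genes together, against 9860.4, 10749.5 and 9733 CPM at 12 h. The median gene stood at 9.03 CPM at 12 h and 105 CPM at 36 h. The test was edgeR's quasi-likelihood test, with a call where the Benjamini-Hochberg adjusted p over all genes was under 0.05 and the log2 fold change was 1 or more in size. Of 198 genes tested, 145 rose from 12 to 36 h and 0 fell, where 6.62% of all 8140 genes tested rose and 4.78% fell. These 145 genes were 26.9% of all genes that rose and 69.4% of the set. The median log2 fold change was 3.39 over the 198 genes, with quartiles of 2.04 and 4.93, and 0.01 over all genes tested. Of the 53 genes not called, 10 had a negative log2 fold change, and 162 of the 198 had an unadjusted p under 0.05. DESeq2 called 153 higher and 1 lower, where 606 and 436 of all 8140 genes were called. The 11 genes not tested averaged under 1 CPM over the time course, and POX04456 and POX09620 had 0 CPM in all 48 of its libraries. With no filter on low values 146 were called, all higher.

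Among the genes of highest count, POX07238 went from 18.98, 26.96 and 28.2 CPM at 12 h to 2599, 2925 and 3007 CPM at 36 h (log2 fold change ± SE 6.86 ± 0.73, adjusted p = 2.38e-08 by edgeR). POX05887 went from 15.8, 31.8 and 22.1 to 1408, 1490.3 and 1575 CPM (6.00 ± 0.94, adjusted p = 1.77e-05), and POX05306 from 20.6, 32.5 and 22.4 to 1403, 1193 and 1167 CPM (5.64 ± 0.89, adjusted p = 1.95e-05). In all 3 genes the libraries of the times did not overlap. All libraries of 36 h lay above all of 12 h for 176 of the 198 genes and for 17.4% of all genes tested. POX05726 (3.99 ± 0.5, adjusted p = 4.12e-07), POX00089 (3.51 ± 0.63, adjusted p = 0.000121), POX08694 (3.38 ± 0.87, adjusted p = 0.00488) and POX01651 (3.22 ± 0.82, adjusted p = 0.00471) rose as well. POX00044 (1.16 ± 0.3, adjusted p = 0.00444) and POX01764 (3.60 ± 1.09, adjusted p = 0.0178) rose, but with 1 library left out their adjusted p ran from 0.00380 to 0.0704 and from 0.0183 to 0.0903. POX01764 went from 404, 1731 and 579.8 to 6009.6, 20298 and 7329 CPM. Its second library was the highest at both times, and in 15 of the 16 groups of the time course its highest value came from the same set of tables.

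POX06513, at 78.9, 93.8 and 207 CPM at 12 h and 2625, 2899.9 and 3618 CPM at 36 h, did not pass (4.61 ± 1.8, adjusted p = 0.0728 by edgeR). It passed with the sets of tables as a block (adjusted p = 5.57e-06), with the groups of both times fitted alone (adjusted p = 0.00357) and by DESeq2 (adjusted p = 0.00867), and in 15 of 16 groups its highest library came from one set of tables. POX04860 (1.26 ± 1.01, adjusted p = 0.484) and POX04863 (0.27 ± 0.39, adjusted p = 0.786) were not called either, the latter with 843, 933 and 945 CPM early and 1151, 963 and 1123 CPM late. The largest changes were those of genes close to 0 at 12 h. POX03496 had 0 CPM in all 3 libraries at 12 h and a mean of 92.2 CPM at 36 h, at least 234-fold higher against 3 counts per library, with adjusted p of 0.0457 to 0.0728 by edgeR when 1 library was left out and of 0.332 by DESeq2. POX02423 went from a mean of 0.223 to 206 CPM, POX03250 from 0.217 to 99.9 CPM and POX08912 from 0.515 to 116 CPM.

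On wheat bran beside Avicel the set stayed low in Ku70. On WA the 3 libraries of 12 h summed to 6446, 5599.9 and 6007 CPM, those of 24 h to 4947, 5051 and 4987 CPM and those of 36 h to 7749.6, 6906 and 7277 CPM. At 36 h, 165 of 198 genes were lower on WA than on AV and 5 were higher by edgeR, where 10.1% of all genes tested were lower and 9.56% higher. The median log2 fold change was -5.40 over the 198 genes, with quartiles of -7.65 and -2.77, and -0.02 over all genes. At 12 h 92 were lower and 15 higher, where 15.3% and 13.1% of all genes were called, and the median was -1.91. Of the 145 genes that rose on AV, 138 were also lower on WA at 36 h. Both comparisons use the Ku70 AV 36 h libraries, so this overlap is given as a count alone.

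At 36 h POX08694 stood at 0.134, 0.280 and 0.271 CPM on WA against 1125, 1101 and 1247 CPM on AV (-12.03 ± 1.31, adjusted p = 1.09e-08 by edgeR). POX05887 (-10.40 ± 1.15, adjusted p = 1.46e-08), POX07238 (-8.02 ± 0.77, adjusted p = 7.63e-10), POX01651 (-7.77 ± 1.03, adjusted p = 3.75e-07) and POX01764 (-7.66 ± 1.32, adjusted p = 2.52e-05) were lower in the same way. POX04863 was not called (-0.23 ± 0.39, adjusted p = 0.776). POX02423, POX03496 and POX05864 had 0 CPM in all 3 WA libraries, at least 502-fold, 225-fold and 200.3-fold lower than on AV against 3 counts per library, POX03496 with an adjusted p of 0.286 by DESeq2. POX07516 had a mean of 1019 CPM on AV and 0.136 CPM on WA. Among the 5 genes higher on WA at 36 h were POX07227 (2.85 ± 0.41, adjusted p = 1.37e-06), POX00769 (1.98 ± 0.53, adjusted p = 0.00421), POX09204 (1.64 ± 0.39, adjusted p = 0.00118) and POX05481 (1.56 ± 0.55, adjusted p = 0.0289), the last with adjusted p of 0.0367 to 0.0932 when 1 library was left out. At 12 h POX07576 (3.78 CPM on AV, 444 CPM on WA), POX06151 (1.84 and 66.6 CPM), POX04292 (11.2 and 342 CPM) and POX07227 (5.19 and 146 CPM) were the most raised on WA. POX04292 was lost without Ku70 AV 12 h library 23 or 25 (adjusted p up to 0.0550). POX04499, POX03777 and POX04562 had 0 CPM in all 3 WA 12 h libraries, at least 309-fold, 23.7-fold and 11.8-fold lower, and POX03844 was at 0.0459 CPM on WA and 6.11 CPM on AV.

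On WA itself, 24 of 198 genes rose from 12 to 36 h and 17 fell by edgeR, where 14% of all genes tested rose and 10.1% fell. The median log2 fold change was 0.08. POX09204 rose from a mean of 84.5 to 1915 CPM (4.57 ± 0.44, adjusted p = 7.67e-10) and POX00769 from 8.21 to 177 CPM (4.51 ± 0.6, adjusted p = 2.93e-07). POX04499 went from 0 CPM in all 3 libraries to a mean of 12.4 CPM, and POX04562 from 0 to 0.274 CPM, the latter with adjusted p up to 0.100 when 1 library was left out and 0.199 with the sets of tables as a block. POX07576 fell from 444 to 13.7 CPM (-4.93 ± 0.49, adjusted p = 1.24e-09), and POX07516, POX05483 and POX05859 fell from means of 7.17, 1.36 and 7.42 CPM to 0.136, 0.0447 and 0.500 CPM. The test of the difference itself, the change with time on AV minus that on WA, was added after seeing the data. It was larger on AV for 120 of 198 genes and smaller for 5, where 13.9% and 14.1% of all genes tested were called. The median difference in log2 fold change was 2.95 over the 198 genes and 0.03 over all genes.

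**Figure D3:**
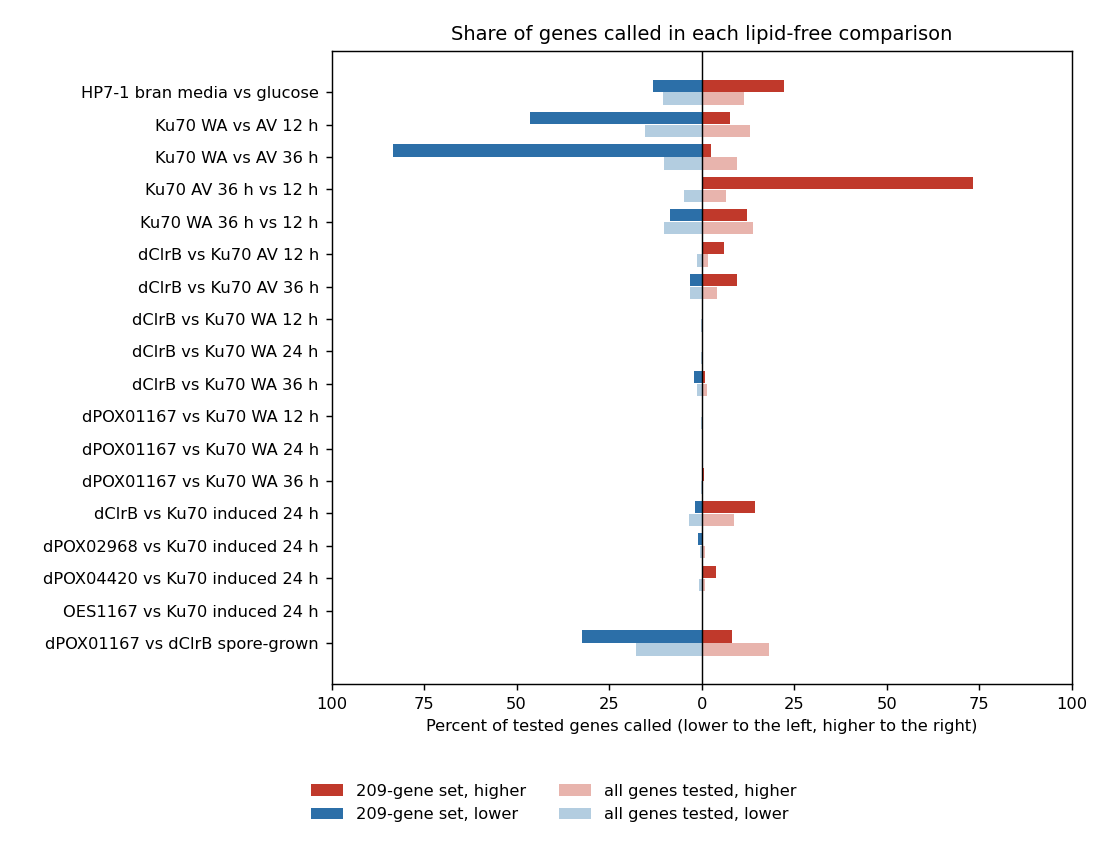
Percent of the tested genes of the set (dark bars) and of all genes tested (pale bars) called higher (to the right) or lower (to the left) in each of the 18 comparisons without lipid, by edgeR with the limits given in the text. The longest bars of the set are 73.2% higher for AV 36 h against 12 h and 83.3% lower for WA against AV at 36 h.

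Neighbouring identifier numbers were counted in the set. Of the 209 genes, 74 (35.4%) had another gene of the set at the next number. Of the 73 genes that met the mirror-image rule, at least 3 times lower in the mutant on all lipids, 18 did (24.7%). A larger set has more neighbours by its size alone, and the share expected for each size was not computed. The percentages therefore do not say which set is more clustered. Runs of at least 3 genes of the set, each at most 3 numbers from the next, numbered 10 and held 59 genes. The files give no positions, so neighbouring numbers are not shown to be neighbouring genes.

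The longest run spanned POX05850 to POX05871 and held 20 of its 22 identifiers, all but POX05867 and POX05869. Its median gene had 193 CPM in the mutant on arachidonic acid oil, 135 CPM on linolenic acid and 82.3 CPM on oleic acid, and 1.43, 3.59 and 1.02 CPM in Ku70. In Ku70 without lipid it had 6.35 CPM on AV at 12 h, 144 CPM on AV at 36 h and 0.595 CPM on WA at 36 h. Of the 20 genes 18 rose on AV from 12 to 36 h and 19 were lower on WA at 36 h. Along the run the mutant level on arachidonic acid oil ranged from 43.3 CPM for POX05860 to 442 CPM for POX05866. Beside it, POX05848, POX05849 and POX05872 were at 0.575, 0.749 and 1.28 CPM in the mutant on arachidonic acid oil. Others close by were higher there, among them POX05846 (48.0 CPM, 36.1 CPM in Ku70) and POX05874 (164 and 23.5 CPM). POX05874 had ratios of 6.73, 2.33 and 1.41 on arachidonic acid oil, linolenic acid and oleic acid. In Ku70 without lipid it had 21.1 CPM on AV at 12 h, 115 CPM at 36 h and 10.1 CPM on WA at 36 h. POX05867 and POX05869 were at 56.6 and 164 CPM in the mutant on arachidonic acid oil and at 13.01 and 29.9 CPM in Ku70. Both missed the rule only on oleic acid, with ratios of 2.08 and 2.36. The median gene of the run stood at 207 CPM in dPOX04420, 80.5 CPM in OES1167, 1.38 CPM in dPOX02968 and 4.11 CPM in dClrB, all induced.

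**Figure D4:**
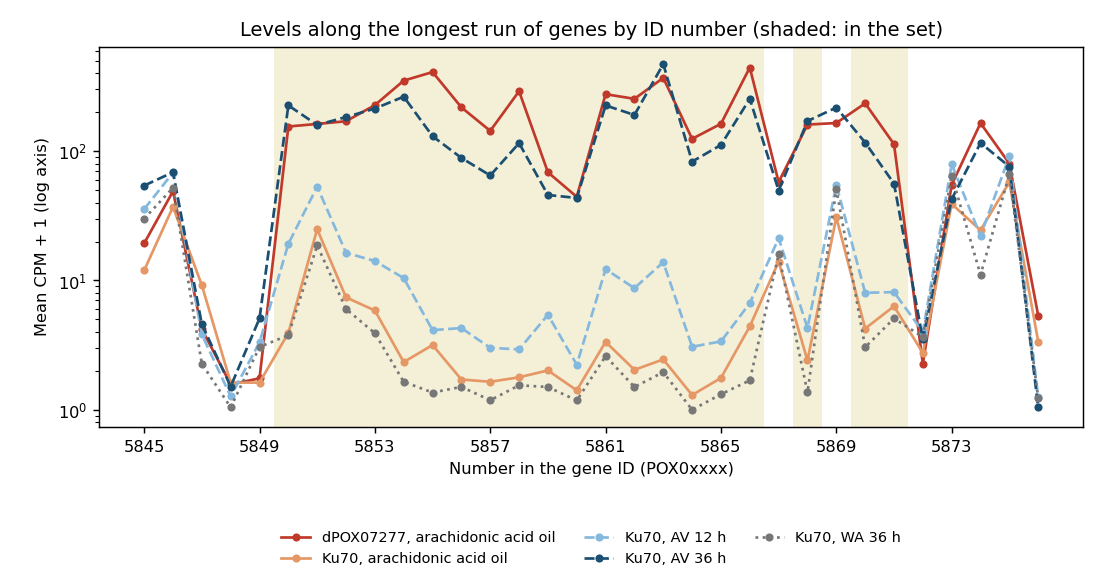
Mean CPM plus 1 (log axis) by identifier number from POX05845 to POX05876, in dPOX07277 and Ku70 on arachidonic acid oil and in Ku70 on AV at 12 and 36 h and on WA at 36 h (3 libraries each), with genes of the set shaded. Within the run dPOX07277 on lipid lies at 43.3 to 442 CPM and Ku70 on AV at 36 h at 42.5 to 471 CPM, while Ku70 on arachidonic acid oil lies at 0.300 to 23.9 CPM.

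The run POX09464 to POX09474 held 9 genes, all of which rose on AV with time and were lower on WA at 36 h. Its median gene had 80.03 CPM in the mutant and 1.27 CPM in Ku70 on arachidonic acid oil, 2.19 CPM on AV at 12 h and 81.4 CPM at 36 h. POX08694 to POX08703 held 7 genes, of which 6 were tested and all 6 rose and were lower on WA. POX08682 to POX08685 (4 genes), POX04560 to POX04562 and POX08107 to POX08109 (3 each) also had every gene higher with time on AV and lower on WA. The run POX00039 to POX00044 did otherwise. Of its 4 genes 1 rose on AV, the median gene being at 249.6 CPM at 12 h and 271 CPM at 36 h, and all 4 were lower on WA at 36 h. Of the 3 genes each in POX03409 to POX03413, POX03456 to POX03460 and POX05481 to POX05483, 2, 1 and 3 rose.

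Induced cultures of Ku70 differed widely among themselves in the 209 genes. The summed level ran from 5091 to 87564 CPM over the 24 libraries, with 9 of them under 12000 CPM and 8 over 50000 CPM. The 12 shallow libraries ran from 5091 to 41544 CPM (median 14703) and the 12 deep ones from 6555 to 87564 CPM (median 56878). The highest library exceeded the lowest by a median of 45.5-fold for genes of the set, 1 CPM added, against 3.91-fold for the 8523 genes whose mean reached 1 CPM. POX08694, for one, ran from 12.5 through a median of 430.3 to 2337 CPM, and POX05887 from 3.06 through 174 to 1241 CPM. The labels give these libraries a single description, and no source used here says what separates them.

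The mutant on lipid was set beside the mean of these libraries, as a description, since the mutant levels on lipid chose the genes. With 1 CPM added, 15 genes had a mutant mean on all 3 lipids at least 3 times the mean of the 24 Ku70 induced libraries, and 0 were at least 3 times lower on all 3. Of the 6610 genes with mutant means of at least 10 CPM on all lipids, 25 were higher and 56 lower by these limits. The 15 were POX00089, POX00740, POX02282, POX02423, POX02495, POX02837, POX03395, POX03456, POX03459, POX04863, POX04952, POX05095, POX07227, POX09222 and POX09620. Against the 12 deep induced libraries alone the number was 11. For 196 genes the lowest of the 3 mutant means was reached by the mean of some group without lipid, and for 161 by a Ku70 group. The highest of 27 group means, or of 6 for Ku70, is set here against the lowest of 3, which favours reaching it. No share over all genes is given for these counts or those that follow here, so they are not shown to be particular to the set. The Ku70 group with the highest mean was AV at 36 h for 138 genes and induced at 24 h for 47. At AV 36 h, 162 genes lay within 3-fold of their mean over the mutant lipid groups, 21 at least 3-fold above it and 26 at least 3-fold below it. The 13 genes that no group without lipid matched included POX02282 (at least 104 CPM in the mutant means, at most 40.04 CPM elsewhere), POX02495 (63.4 and 25.3 CPM) and POX09620 (36.6 and 2.71 CPM). These 3 were picked as examples after their values were seen, and the tables of the time course list POX09620 at 0 throughout.

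**Figure D5:**
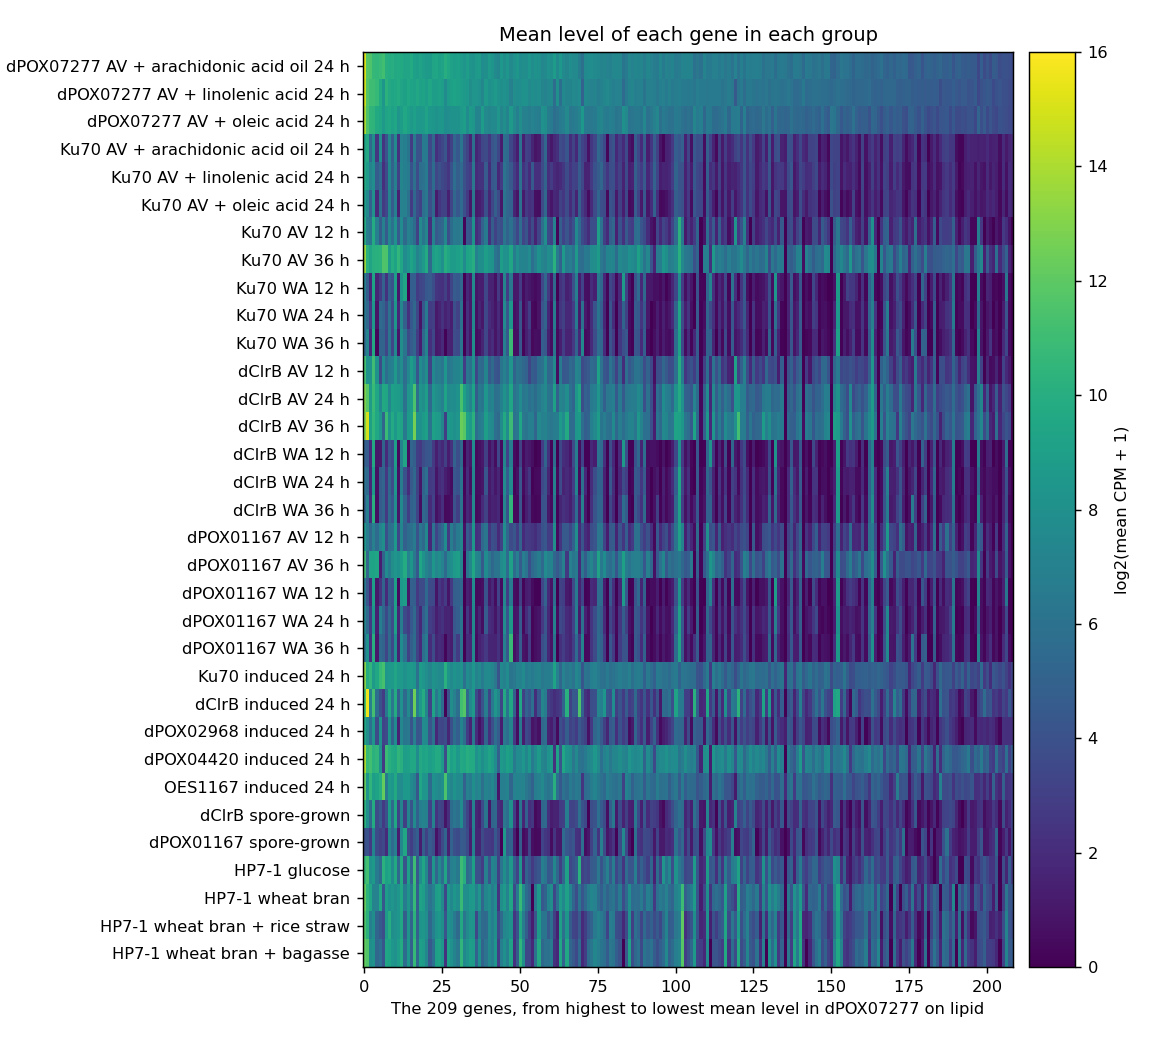
Mean level of each of the 209 genes, as log2 of mean CPM plus 1, in each of the 33 groups, with genes from the highest to the lowest mean in dPOX07277 on lipid. The median gene has 105 CPM in Ku70 on AV at 36 h, 81.7 CPM in dClrB on AV at 36 h, 133 CPM in dPOX04420 induced and 2.08 CPM in Ku70 on WA at 36 h.

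Among the other mutants, dPOX04420 had the highest mean of any group without lipid for 89 of the 209 genes, a count also given without a share over all genes. Its 3 libraries summed to 68179, 71459 and 69276 CPM. Ku70 induced libraries 17, 18, 20 and 21 lay above all 3, at 75788, 74331, 86369 and 87564 CPM, and the rest of the 24 lay below. The ranking by group mean sets dPOX04420 against the mean of all 24. Against the 24 Ku70 induced libraries 8 of 209 genes were called higher and 0 lower by edgeR, where 0.855% and 0.761% of all genes tested were called. The median log2 fold change was 1.06, and 185 genes had a positive one. The 8 included POX02423 (3.31 ± 0.53, adjusted p = 0.000987), POX04826 (2.72 ± 0.62, adjusted p = 0.0164), POX09110 (2.65 ± 0.6, adjusted p = 0.0155) and POX09204 (2.38 ± 0.62, adjusted p = 0.0389). The calls rested on the choice of libraries. Against the 12 shallow Ku70 libraries, the depth of the mutant's own, 48 were higher, where 246 of all 8430 genes were higher and 211 lower. Without any 1 mutant library 1 to 3 were called, where 42, 7 and 15 of all genes were higher without F, S and T.

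dPOX02968 lay at the other end, with sums of 6598, 4936 and 5072 CPM. Ku70 induced libraries also lay at this level, the lowest at 5091 CPM and 9 of the 24 under 12000 CPM. The median log2 fold change against all 24 was -2.96, and 11 of 209 genes had a positive one. This median depended on which Ku70 libraries served as controls. It was -3.39 against the 12 deep ones and -0.12 with a block on the letters, which rests on libraries 1F, 1S and 1T. POX09470 (-6.24 ± 1.72, adjusted p = 0.0488) and POX06595 (-4.48 ± 1.2, adjusted p = 0.0425) were called lower and 0 higher by edgeR, where 0.539% and 0.972% of all genes were called. POX09470 was at 2.80, 1.33 and 1.76 CPM in the mutant and from 3.32 through a median of 85.8 to 359.9 CPM in Ku70. DESeq2 called 124 lower, where 309 of all 8541 genes were lower and 107 higher. The 12 deep Ku70 libraries as controls gave 118 lower and 1 higher, where 271 of all 8625 genes were lower and 187 higher. By contrast edgeR without any 1 mutant library called 0, where 6, 6 and 22 of all genes were lower without F, S and T. OES1167 summed to 41676, 26957 and 28544 CPM and had 0 genes called by edgeR in either direction (0.176% and 0.0352% of all genes higher and lower), with 7 at an unadjusted p under 0.05 and 1 called by DESeq2. POX01167 stood at 394 to 428 CPM in OES1167 and 118 to 342 CPM in Ku70.

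dClrB carried the set at high levels on AV. Its summed level there was 11999, 25698 and 15214 CPM after 12 h. After 24 h it was 15745, 75806 and 42126 CPM, and after 36 h 93078, 96444 and 94685 CPM. No Ku70 library without lipid carried the label AV at 24 h. The Ku70 induced libraries, also on Avicel for 24 h by the growth protocol, were not compared with dClrB on AV. In dClrB the median gene of the set stood at 17.7 CPM induced and at 65.0 CPM on AV at 24 h, a difference that was not tested. At 36 h 19 of 198 genes were higher than in Ku70 and 6 lower by edgeR, where 4.19% and 3.19% of all genes were called, and the median log2 fold change was -0.25. With both groups fitted alone 23 were higher and 24 lower, and with the sets of tables as a block 26 and 11, so the balance of directions depended on the fit. Of all genes these fits called 388 higher and 305 lower of 8077, and 496 and 361 of 8140. POX00089 stood at 27399, 31548 and 33282 CPM against 1077, 1275 and 1229 CPM in Ku70 (4.76 ± 0.67, adjusted p = 3.28e-06). POX09110 (4.49 ± 0.83, adjusted p = 0.000189), POX02423 (4.25 ± 0.96, adjusted p = 0.00496) and POX00105 (4.24 ± 0.61, adjusted p = 5.05e-06) were higher too, POX02423 with an adjusted p of 0.0611 by DESeq2. POX07516 was lower, at 11.4, 4.06 and 5.44 CPM against 1072, 1066 and 919.8 CPM (-7.13 ± 0.59, adjusted p = 1.36e-10). POX03095 (-3.45 ± 0.73, adjusted p = 0.000928), POX04526 (-2.73 ± 0.41, adjusted p = 8.17e-06) and POX06513 (-6.32 ± 1.95, adjusted p = 0.0270) were also lower, the last with adjusted p of 0.0406 to 0.120 when 1 library was left out.

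At 12 h on AV 12 of 198 genes were higher in dClrB and 0 lower by edgeR, where 1.61% and 1.36% of all genes were called, with a median of 1.06. Among them were POX09204 (2.34 ± 0.4, adjusted p = 0.000199), POX02423 (4.76 ± 1.15, adjusted p = 0.0209), POX01431 (2.48 ± 0.73, adjusted p = 0.0433) and POX09468 (3.23 ± 0.97, adjusted p = 0.0497). This count rested on single libraries. Without dClrB library F 46 were called and without library S or T 6 and 5, while without Ku70 library 23, 24 or 25 the count was 2, 3 and 1. With the sets of tables as a block 43 were higher and 1 lower, where 232 and 144 of all 8140 genes were called. With both groups fitted alone 1 was higher, where 10 of all 7995 genes were higher and 32 lower. On WA the summed level in dClrB was 4388 to 7078 CPM over the 3 times. There edgeR called 0 of 198 genes at 12 h and at 24 h, with 16 and 20 at an unadjusted p under 0.05 and 0 and 4 called by DESeq2, and 4 at 24 h with the block. Of all genes 0.209% were called in each direction at 12 h, and 0.479% higher and 0.246% lower at 24 h. At 36 h on WA 2 were higher and 4 lower (1.45% and 1.19% of all genes). POX07576 (1.78 ± 0.43, adjusted p = 0.0103) and POX05483 (4.04 ± 0.98, adjusted p = 0.0107) were higher. POX01519 (-2.46 ± 0.53, adjusted p = 0.00381), POX05481 (-2.34 ± 0.57, adjusted p = 0.0107), POX04952 (-2.28 ± 0.68, adjusted p = 0.0477) and POX04526 (-1.44 ± 0.39, adjusted p = 0.0234) were lower. With 1 library left out 1 to 5 genes of the set were called, and with both groups fitted alone the adjusted p was 0.0677 for POX01519, 0.0864 for POX07576 and 0.124 for POX04952.

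Induced dClrB libraries summed to 111700, 62939 and 95325 CPM. Of 209 genes 30 were higher than in Ku70 and 4 lower by edgeR, where 8.68% and 3.32% of all genes were called, with a median of -1.60. POX00089 alone took 66247, 30501 and 53728 CPM against 136 through a median of 873 to 2968 CPM in Ku70 (5.76 ± 0.47, adjusted p = 2.07e-10). POX02423 (5.68 ± 0.5, adjusted p = 7.99e-10), POX09110 (5.39 ± 0.55, adjusted p = 1.81e-08) and POX06900 (4.79 ± 0.35, adjusted p = 2.42e-11) were higher as well. POX07516 was at 0, 0.296 and 0 CPM against 0.848 to 5773 CPM (-13.39 ± 4.37, adjusted p = 0.0336). POX05854 (-7.61 ± 2.45, adjusted p = 0.0316), POX05306 (-6.94 ± 2.1, adjusted p = 0.0219) and POX05850 (-4.46 ± 1.45, adjusted p = 0.0334) were lower too. DESeq2 called 27 higher and 70 lower, where 732 and 566 of all 8549 genes were called. With the shallow Ku70 libraries as the controls 35 were higher and 0 lower, where 624 and 210 of all 8435 genes were called. The lower calls were also lost when 1 dClrB library was left out, all 4 of them without F or T and 3 without S.

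dPOX01167 on WA differed from Ku70 in 0 of 198 genes at 12 h and at 24 h and in 1 at 36 h by edgeR, with 18, 17 and 7 at an unadjusted p under 0.05 and 2, 0 and 3 called by DESeq2. Of all genes 0.0369% were higher and 0.172% lower at 12 h, 0.0369% in each direction at 24 h, and 0.221% and 0.135% at 36 h. The gene called was POX05581 (189 against 84.5 CPM, 1.03 ± 0.21, adjusted p = 0.0109), with adjusted p of 0.0452 to 0.110 when 1 library was left out and 0.0557 with both groups fitted alone. With the sets of tables as a block 1 gene was called at 24 h and 2 at 36 h. The libraries labelled dPOX01167 on AV, of which 5 carry POX01167 transcript, held a summed level of 7309 to 8566 CPM at 12 h, and those at 36 h one of 39236, 9327 and 19265 CPM. Grown from spores, dPOX01167 summed to 3973 to 5246 CPM and dClrB to 7602 to 8169 CPM. Of 185 genes 15 were higher in dPOX01167 and 60 lower by edgeR, where 18.3% and 17.7% of all genes were called, with a median of -0.58. POX04369 (-8.39 ± 0.58, adjusted p = 0.000217), POX01764 (-6.50 ± 0.66, adjusted p = 0.000529) and POX06595 (-6.41 ± 0.32, adjusted p = 0.000126) were lower. POX00740 was at 0 CPM in all 3 dPOX01167 libraries and had a mean of 2.63 CPM in dClrB, with adjusted p of 0.0187 by edgeR and 0.0649 without dClrB library F. POX05482 (6.68 ± 1.38, adjusted p = 0.00861), POX07227 (6.35 ± 1.6, adjusted p = 0.0186), POX07576 (6.33 ± 1.18, adjusted p = 0.00565) and POX06151 (5.71 ± 0.24, adjusted p = 0.000107) were higher. POX07227 was lost without any 1 dClrB library (adjusted p up to 0.0784). The number of genes higher in dPOX01167 was 6, 7 and 7 without dClrB library F, S and T, and 9 and 29 without dPOX01167 library F and S.

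In the wild type HP7-1 the set stood at 33257, 33660.2 and 17767 CPM on glucose, 38511 CPM on wheat bran, 29381 CPM on wheat bran with rice straw and 41238 CPM on wheat bran with bagasse. With the bran media taken as 1 group, 46 of 207 genes were higher on bran and 27 lower than on glucose by edgeR, where 11.5% and 10.5% of all genes were called. The median log2 fold change was 0.22 over the set and 0.13 over all genes. Without the bagasse library 15 were lower, without that of wheat bran alone 36, and the median turned to -0.07 without the latter and was 0.57 without that with rice straw. POX01489 and POX00740 were at 0 CPM in all 3 glucose libraries and had means of 65.98 and 47.9 CPM on bran, at least 12.2-fold and 8.88-fold higher against 3 counts per library. POX02837 (1.75 CPM on glucose, 401 CPM on bran) and POX09687 (7.26 and 592 CPM) were higher too. POX06513 (1189.8 and 16.98 CPM), POX07516 (640.4 and 10.6 CPM), POX08311 (52.1 and 1.31 CPM) and POX07269 (1215 and 48.2 CPM) were lower on bran. On glucose POX06513 was at 65.6, 148 and 3356 CPM and POX07516 at 142, 259 and 1521 CPM in the separate libraries.

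Across the 18 comparisons without lipid 12 of the 209 genes were called in none (5.74%), against 32.7% of the 8902 genes tested in at least 1 comparison. The most for a gene of the set was 8, against 11 over all genes tested, and 14 of the set were called in 7 or more (6.70%, against 1.56%). The comparisons share libraries. POX07516, POX09204, POX04895 and POX09110 were called in 8 each and POX00089 in 7. The genes with the highest mean in any group without lipid were POX00089 (50159 CPM, dClrB induced 24 h), POX01764 (16179 CPM, dPOX04420 induced 24 h), POX00105 (6535 CPM, dClrB AV 36 h), POX08190 (5546 CPM, dClrB AV 36 h) and POX06513 (4823 CPM, OES1167 induced 24 h). The median coding length was 1221 bases in the set and 1150.5 over all identifiers.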

How the data were processed

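RNA of mycelium was measured in 114 libraries. The authors deposited, per library and gene, an expected count (an estimate that need not be whole) and FPKM, and in a few files TPM, per the file headers. The submitters' processing notes name RSEM 1.2.12, DESeq2, Bowtie2 2.1.0 and BWA 0.7.10-r789, without their roles. No source used here gives the genome build. Expected counts were rounded to whole numbers for tests, which moved a library's total by at most 0.00861%. CPM was the expected count over the library's sum. The deposited FPKM was used for levels per length and as an alternative, and the deposited TPM was not used.

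Genes with a mean under 1 CPM in a fit were left out. edgeR 4.0.16 (R 4.3.3, TMM scaling, quasi-likelihood, two-sided, Benjamini-Hochberg) was fitted separately to the time course, each induced strain with Ku70, the spore-grown libraries and HP7-1. The code was run on simulated counts, drawn independently with the same spread for every gene. That run does not cover deviations shared by libraries or the wide spread among Ku70 induced libraries. Alternatives were RLE scaling, no filter, DESeq2 1.42.0, a replicate block, the compared groups alone, controls of the same depth and each library left out. Genes named were those of highest level, ratio or fold change by a written rule. The members and lists were chosen with earlier results of these data known.

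Time-course libraries were split into 3 sets of tables alike in log2 of FPKM over count, with the number of sets fixed at 3. The margin was thin, the largest mean difference within a set being 0.131 and the smallest between sets 0.149. No source used here says that the tables of a set share a quantification. The sets followed the labels: letters F, S and T in dClrB and dPOX01167, and the lowest, middle and highest number in each Ku70 group. Deviations of libraries of one set from their group means correlated by 0.768 to 0.933. The main tests left this pairing out, and a block on the set was an alternative. No libraries of a lipid group were duplicates of one another. All 9964 genes of the reference table were compared with the identifiers and 0 matched, so no names, positions or sequences are given.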

Additional observations from a re-analysis of the deposited data

Results flagged for a closer look

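The change of Ku70 from 12 to 36 h differed between Avicel and wheat bran plus Avicel by a test of the difference itself (edgeR, change on AV minus change on WA, added after seeing the data). It was larger on AV for 120 genes of the set and smaller for 5. Among the 12 genes of highest count in the mutant, the difference in log2 fold change was 2.66 for POX00044, 3.11 for POX01651, 4.85 for POX01764, 2.98 for POX05306, 4.64 for POX05726, 6.17 for POX05887, 5.54 for POX07238 and 6.46 for POX08694. The other 4 were not called: POX00089 (0.97 ± 0.81, adjusted p = 0.403), POX04860 (-0.14 ± 1.41, adjusted p = 0.975), POX04863 (-0.21 ± 0.56, adjusted p = 0.848) and POX06513 (4.48 ± 2.3, adjusted p = 0.135), the last being called with the sets of tables as a block (adjusted p = 0.000101). With 1 library left out, the adjusted p of POX01651 ran from 0.0258 to 0.0754 and that of POX05306 from 0.0219 to 0.0768. The causes of these differences were not tested.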

How the results depend on the processing

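Counts below are genes of the set called by edgeR unless another tool is named. They show how far the main counts move with the processing, and no share over all genes stands beside them here. The set itself held 149 to 301 genes under other thresholds, scalings and FPKM and 182 to 225 with 1 library left out, the lowest without oleic acid library S of the mutant; 193 of the 209 genes by FPKM were shared. A 2-fold limit put 32 genes above the Ku70 induced mean in place of 15. With the table sets as a replicate block, 166 genes were called for AV 36 h against 12 h (main 145; one library left out, 131 to 142; without oleic F and T in the rule, 156 higher), 44 for dClrB on AV at 12 h, 4 for dClrB on WA at 24 h, and 1 and 2 for dPOX01167 on WA at 24 and 36 h. The block changed no other total by over 1.5 times; of the named genes it added POX06513 and POX04860 (the latter for WA against AV at 36 h, adjusted p = 0.000985 in place of 0.0995) and lost POX04562. DESeq2 called 35 for dClrB on AV at 12 h, 4 on WA at 24 h and 97 induced, 2 and 3 for dPOX01167 on WA at 12 and 36 h, 124 for dPOX02968, 13 for dPOX04420 and 1 for OES1167. The compared groups fitted alone gave 1 and 47 for dClrB on AV at 12 and 36 h and 0 for dPOX01167 on WA at 36 h. Controls of the same depth gave 119 for dPOX02968, 48 for dPOX04420 and 1 for OES1167. With 1 library left out the counts were 1 to 46 for dClrB on AV at 12 h, 1 to 5 on WA at 36 h, 0 to 1 for dPOX01167 on WA at 36 h, 0 for dPOX02968, 1 to 3 for dPOX04420 and 47 to 97 for the spore-grown strains. The spore-grown letters share only a name (correlation of deviations 0.00709 to 0.0442, 2 of 3 libraries being closest to their own letter), and a block on them gave 61 calls in place of 75. The letters of the induced mutants and 1F, 1S and 1T of Ku70 also share only a name (-0.149 to 0.121, 3 of 12). A block on them was added after seeing the data and rests on those 3 Ku70 libraries. It gave 20 for dClrB, 0 for dPOX02968, 10 for dPOX04420 and 0 for OES1167. With it the median log2 fold change moved from -1.60 to 1.41 in dClrB and from -0.33 to 2.80 in OES1167. In dPOX02968 it moved from -2.96 to -0.12 and in dPOX04420 from 1.06 to 3.99. The causes were not tested. For WA against AV at 36 h 170 genes were called, 170 to 182 under other scaling, filter, tool or design and 165 to 168 with 1 library left out; the set chosen without oleic F and T gave 184 of 215. Of 1514 alternative values for 134 named results, 135 lost their call, 8 gained one and 0 changed direction. No paired analysis was possible for HP7-1, whose groups share no number, and the lipid levels have no test.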
